A study of Mus musculus with 267 samples.

Results

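The sites described here were the STAT6 binding sites that C57BL/6J (C57) bone marrow-derived macrophages (BMDMs) gained within 1 h of IL-4. STAT6 ChIP-seq of BMDMs treated for 1 h gave 24376 peaks, and 8688 of them (35.6%, 95% exact binomial interval 35.0 to 36.2) overlapped no peak of the untreated cells by even 1 bp. These 8688 peaks were taken as gained sites, and the other 15688 peaks of the 1 h list, which did overlap an untreated peak, as held sites. The peak lists at basal and 1 h were used to select the members, which were thus chosen by the STAT6 peak calls themselves, so the presence, score and count of STAT6 in these lists are given only as a description. All BMDMs came from adult female mice, were differentiated with M-CSF, and were left untreated (basal) or received 20 ng/mL recombinant mouse IL-4 for 1, 6 or 24 h. The C57 groups held 2 libraries each for STAT6, H3K27ac and EGR2, whereas RNA polymerase II (Pol II) had 4 libraries at basal, 1 at 1 h, 2 at 6 h and 3 at 24 h. A second set of cells, at basal and after 24 h, came from Egr2 fl/fl mice, whose Egr2 alleles are flanked by loxP sites but intact, and from LyzM-Cre Egr2 fl/fl mice, in which the lysozyme M promoter drives Cre in myeloid cells and so deletes Egr2 there, with 2 libraries per group. STAT6 peak lists at basal and 24 h also came from BMDMs of 4 other strains, SPRET/EiJ, PWK/PhJ, BALB/cJ and NOD/ShiLtJ, called by the first part of these names. Both genotypes carried the floxed alleles, a strain background is not given for them in the labels, and the deletion itself was not measured in the libraries used here.

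STAT6 is a latent transcription factor that JAK kinases phosphorylate at the IL-4 receptor. The phosphorylated dimer enters the nucleus within minutes and binds palindromes with a TTC and a GAA arm, the IL-4 dimer preferring a spacer of 4 bases and other STAT dimers one of 3. EGR2, a zinc finger factor whose gene IL-4 induces, acts in later hours of the response, which in macrophages is known as alternative activation and features Arg1, Mrc1 and chitinase-like proteins. Acetylation of histone H3 at lysine 27 (H3K27ac) marks active enhancers and promoters, and Pol II marks sites of transcription, enhancers included.

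The deposited values were tags in fixed windows, scaled by the authors to 10000000 tags per library. Library totals ran from 11780899 to 29050468 tags for H3K27ac, 7796479 to 21973750 for Pol II, 5728050 to 22280181 for EGR2 and 8032408 to 11296393 for STAT6 in the Egr2 genotypes. Of the H3K27ac libraries, the 1 h replicate 2 had 20.5% of its tags in the open regions measured, against 41.2 to 69.7% in the other 7. The basal libraries had 69.7% and 63.8%, and the libraries with IL-4 20.5 to 51.0%, so this share went with treatment. The 1 h replicate 1 of EGR2 had 5.38%, against 10.8 to 22%. All 6 macrophage marker genes tested had an open region at their start, with 190 to 718 basal H3K27ac tags, whereas none of 5 T cell genes had one, and the 2 of 4 B cell and 2 of 4 epithelial genes with one had 0.355 to 88.1, as did the 1 of 5 granulocyte and mast cell genes with one (16.3). A bulk signal cannot tell fewer responding cells from less signal per cell. Replicates were separate libraries of one group, and p-values here measure the spread between libraries.

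Gained sites fell into 4 classes by the later STAT6 lists of C57 BMDMs. The largest class, 3871 sites (44.6%, 43.5 to 45.6), had a STAT6 peak at 1, 6 and 24 h. A further 2209 sites (25.4%, 24.5 to 26.4) were in the 1 h list only, 1559 (17.9%) in the 1 and 24 h lists, and 1049 (12.1%) in the 1 and 6 h lists. Thus 56.6% of gained sites were in the 6 h list and 62.5% in the 24 h list, against 88.9% and 94.4% of held sites. The lists differed in length, with 30589 peaks at basal, 23884 at 6 h and 39537 at 24 h. They also differed in median deposited count, which was 31.0 at basal, 117.0 at 1 h, 90.0 at 6 h and 35.0 at 24 h. Absence from a list is therefore not a measure of unbound or lost STAT6, and equal list lengths do not level the counts. When every list was reduced to the same number of top peaks, 59.7% of gained sites were kept at 6 h and 45.2% at 24 h.

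Sites with more tags in the 1 h list were kept more often. The median deposited count at gained sites was 112.0 (61 to 636), against 119.0 at held sites, and it was 92.0 for 1 h only, 118.0 for 1 and 6 h, 95 for 1 and 24 h and 146.0 for 1, 6 and 24 h. Of the 2172 highest-scoring gained sites, 86.4% were in the 6 h list and 80.8% in the 24 h list, and of the 2172 lowest-scoring ones 33.1% and 49.3%. At the edge of the rule, 130 gained sites lay less than 100 bp from a basal peak (median count 144.5, 58.5% kept at 24 h) and 66 held sites overlapped one by 50 bp or less (median count 150.5, 84.8% kept). The median distance from a gained site to the nearest basal peak was 7802 bp.

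The site with the highest score and count in each class held a STAT6 palindrome near its centre. These sites are shown, with Fas, which came after Vmn1r39 in the 1 and 6 h class, added for its 2 palindromes. Capitals mark TTCNNNNGAA (N4), all sequences are the plus strand of mm10, and a site is named by the gene whose start is nearest or by the list gene within 50 kb.
Lmo4 (1 h only, chr3:144138560-144138629): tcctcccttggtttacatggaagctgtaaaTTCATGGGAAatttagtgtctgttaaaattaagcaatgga
Vmn1r39 (1 and 6 h, chr6:66849084-66849153): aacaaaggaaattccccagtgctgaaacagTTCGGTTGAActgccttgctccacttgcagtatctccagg
Fas (1 and 6 h, chr19:34336710-34336779): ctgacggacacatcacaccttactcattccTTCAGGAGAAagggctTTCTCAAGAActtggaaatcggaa
Ahi1 (1 and 24 h, chr10:20883244-20883313): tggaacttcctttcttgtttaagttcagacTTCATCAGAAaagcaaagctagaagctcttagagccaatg
Atp6v0a1 (1, 6 and 24 h, chr11:100994218-100994287): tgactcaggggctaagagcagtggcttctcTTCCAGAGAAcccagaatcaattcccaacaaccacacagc
The Lmo4 site (deposited count 363) lay 63.7 kb from the start of this LIM-only factor gene, the Vmn1r39 site (527) 38.5 kb from its nearest start, the Fas site (513) 46.1 kb from this death receptor gene, the Ahi1 site (357) 69.3 kb and the Atp6v0a1 site (636) 15.2 kb from this proton pump subunit gene, all between genes. The Fas sequence held the palindrome in 2 copies within the stretch shown.

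The next set was picked for N4 from the sites with the largest rises of H3K27ac, Pol II, EGR2 or, in Egr2 fl/fl cells, STAT6 (Pim1 and Cish). It also holds 1 site with N4 by an IL-4 effector gene (Mmp12).
Ang5 (1, 6 and 24 h, chr14:43967329-43967398): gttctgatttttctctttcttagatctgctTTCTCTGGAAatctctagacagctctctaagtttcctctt
Socs1 (1 h only, chr16:10787016-10787085): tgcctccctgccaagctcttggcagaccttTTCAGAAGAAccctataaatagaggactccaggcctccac
Cry1 (1, 6 and 24 h, chr10:85266417-85266486): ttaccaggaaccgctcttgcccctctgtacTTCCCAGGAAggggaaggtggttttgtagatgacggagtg
Slc7a14 (1, 6 and 24 h, chr3:31266311-31266380): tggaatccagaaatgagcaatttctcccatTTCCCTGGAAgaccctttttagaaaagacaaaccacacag
Tex9 (1, 6 and 24 h, chr9:72485665-72485734): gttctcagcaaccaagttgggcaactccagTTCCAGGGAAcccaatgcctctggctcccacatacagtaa
Pim1 (1, 6 and 24 h, chr17:29444027-29444096): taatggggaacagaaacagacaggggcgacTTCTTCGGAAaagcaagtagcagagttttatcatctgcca
Cish (1, 6 and 24 h, chr9:107308015-107308084): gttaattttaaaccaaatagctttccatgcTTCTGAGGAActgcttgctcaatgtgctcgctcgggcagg
Mmp12 (1, 6 and 24 h, chr9:7330576-7330645): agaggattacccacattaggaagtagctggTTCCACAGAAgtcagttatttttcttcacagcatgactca
Chil3 and Chil4 encode closely related chitinase-like proteins. Gained sites lay at both promoters, 0.58 and 0.575 kb from the starts, and tags from such related copies may be split between them.
Chil3 (1, 6 and 24 h, chr3:106168085-106168154): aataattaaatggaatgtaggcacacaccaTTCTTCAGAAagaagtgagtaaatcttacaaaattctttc
Chil4 (1, 6 and 24 h, chr3:106220027-106220096): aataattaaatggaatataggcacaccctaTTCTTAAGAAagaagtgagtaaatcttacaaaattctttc
Other sites held the palindrome with the spacer of 3 bases, TTCNNNGAA (N3), here in capitals. The Socs2 promoter had 2 copies side by side, 0.037 kb from the start of this feedback inhibitor gene, and the Ptpn6 site, in an intron of Lpcat3, had it at the peak centre.
Akap7 (1, 6 and 24 h, chr10:25128496-25128564): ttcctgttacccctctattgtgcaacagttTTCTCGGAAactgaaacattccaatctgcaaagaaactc
Socs2 (1, 6 and 24 h, chr10:95416874-95416942): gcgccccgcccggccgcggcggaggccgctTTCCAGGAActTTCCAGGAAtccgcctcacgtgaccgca
Ptpn6 (1, 6 and 24 h, chr6:124683792-124683860): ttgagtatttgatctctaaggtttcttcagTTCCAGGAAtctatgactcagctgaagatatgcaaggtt
Some strong responders had neither form in the 200 bp around the centre, as at the site 4.21 kb from Arg1, which encodes arginase, and at the Foxp1 site where acetylation fell. Neither form was in the peak at 3 more sites with large Pol II rises, not shown. These lay by Tmem26 (chr10:68725681-68725740), Cish (chr9:107303284-107303343) and Socs1 (chr16:10781280-10781339).
Arg1 (1, 6 and 24 h, chr10:24931660-24931719): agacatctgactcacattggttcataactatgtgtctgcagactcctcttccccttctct
Foxp1 (1, 6 and 24 h, chr6:99388800-99388859): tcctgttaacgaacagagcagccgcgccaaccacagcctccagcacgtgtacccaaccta

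Within 200 bp of the centre, N4 was present at 38.0% of gained sites, 11.8% of held sites, 2.09% of the 14901 basal peaks with no overlap at 1 h, and 3.22% of 35477 open regions with no STAT6 peak at any time. N3 was present at 18.6%, 10.3%, 4.27% and 3.98%, and either form at 52.1%, 20.9%, 6.23% and 7.07%. Among gained sites, N4 was less frequent in the 1 and 6 h class (27.1%) than in the others (37.9 to 42.1%), and it rose with score, from 23.6% of the lowest-scoring 2172 sites to 59.5% of the highest-scoring. Both forms read the same on either strand.

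Other motifs were distributed differently. The PU.1 core GAGGAA was at 36.9% of gained and 50.2% of held sites, the AP-1 motif TGANTCA at 21.1% and 24.4%, the C/EBP motif TTGCNNAA at 24.4% and 19%, and the EGR motif GTGGGNG at 14.2% and 16.9%. Both strands were searched, and GAGGAA can share its last letters with a STAT palindrome. In open regions without STAT6 the values were 27.4%, 12.7%, 9.65% and 20.5%. The 1 and 6 h class had the C/EBP motif most often (32.2%), and the 1, 6 and 24 h class the EGR motif (19.5%, against 7.97% for 1 h only). Mean GC content was 45.5% at gained sites, 48.5% at held sites and 55.6% in the open regions without STAT6.

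**Figure D1:**
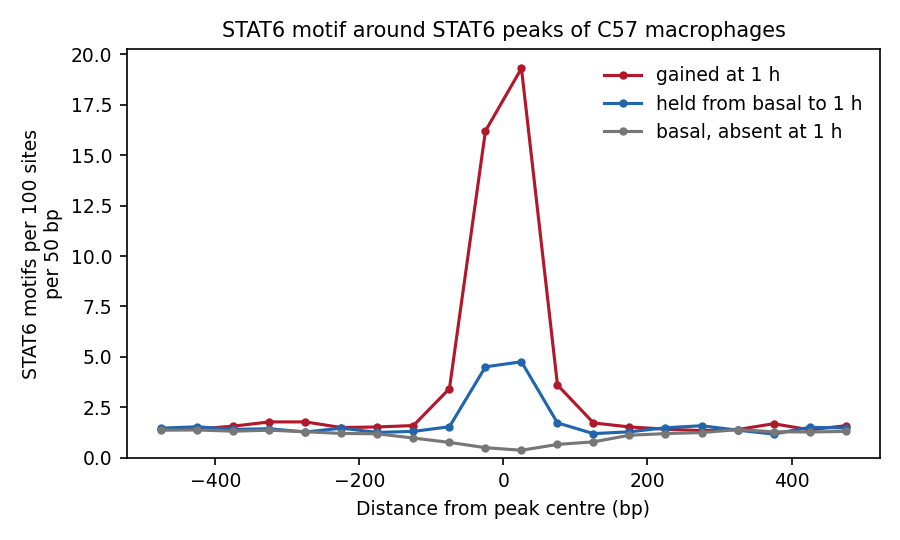
Number of N4 palindromes per 100 sites in bins of 50 bp, by distance from the peak centre in bp, for gained sites, held sites and basal peaks lost by 1 h. Gained sites reached 16.2 and 19.3 per 100 in the central bins, held sites 4.51 and 4.76, and lost peaks 0.503 and 0.376. Beyond 200 bp gained sites lay between 1.35 and 1.78.

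Gained sites were mostly distal: 47.1% lay in introns, 41.1% between genes and 9.45% within 1000 bp of a start, against 44.0%, 39.2% and 14.6% of held sites. The median distance to the nearest start was 20655 bp for gained and 17240 bp for held sites. Of 21924 protein-coding genes, 7610 (34.7%) had a gained site within 50 kb of a start and 249 had 5 or more. The IL-4 target Pdcd1lg2, which encodes the inhibitory ligand PD-L2, had 12, and the nuclear receptor gene Pparg had 8.

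Fewer gained than held sites lay in chromatin that was open or factor-bound before IL-4. An open region at basal covered 69.9% of gained and 94.2% of held sites, and at 1 h 90.6% and 94.2% did, of those with a region in the C57 tables. The lineage factor PU.1 had a basal peak at 45.2% of gained and 92.5% of held sites, and at 24 h at 60.6% and 93.2%. Basal PU.1 peaks were at 26.4% of the 1 h only class, 33.5% of 1 and 6 h, 54.3% of 1 and 24 h and 55.3% of 1, 6 and 24 h. A PU.1 peak at 24 h and none at basal was found at 17.8% of gained and 2.7% of held sites. C/EBPβ peaks covered 23.2% of gained sites at basal and 47.9% at 24 h (held 49.4% and 68.5%), and peaks of the nuclear receptor PPARγ 3.3% and 29.5% (held 18.3% and 65.5%).

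Peaks of STAT6 at 24 h in 4 other mouse strains, which the rule did not use, covered 25.7% of gained sites in BALB, 37.4% in NOD, 58.8% in PWK and 48.7% in SPRET, whose lists held 16432, 20619, 38679 and 35742 peaks. The basal lists of these strains covered 4.09%, 11.6%, 10.2% and 20.6%. The 1, 6 and 24 h class was bound in all 4 strains at 28.8% of its sites, whereas the other classes were at 0.453 to 5.71%. Conversely, 52.0% of 1 h only sites and 7.13% of 1, 6 and 24 h sites were bound in none of the 4. These lists are of 24 h, when the 1 h only and 1 and 6 h classes have no C57 peak by definition. The class shares therefore do not measure a strain difference. Of held sites, 46.6% were bound in all 4 strains and 5.31% in none.

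Whether H3K27ac changed where STAT6 was gained was tested in 6796 open regions that held 6538 of the gained sites. The comparisons at 1, 6 and 24 h share the same 2 basal libraries, so they are not independent of each other. The median gained region had 19 and 14.3 normalized H3K27ac tags in the basal libraries, 35.6 and 14.1 at 1 h, 38.5 and 34.1 at 6 h, and 28.0 and 26.2 at 24 h. Both 6 h and both 24 h libraries were above both basal ones, whereas the 1 h libraries were not. In held regions the medians went the other way, from 97.0 and 106.0 at basal to 60.3 and 32.4 at 1 h, 70.1 and 70.6 at 6 h, and 62.0 and 67.6 at 24 h. Over all regions the shift of the fitted log2 value was -0.63 at 1 h, -0.14 at 6 h and -0.22 at 24 h under scaling to the library total, and 0.09 at 1 h after median-ratio scaling.

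**Figure D2:**
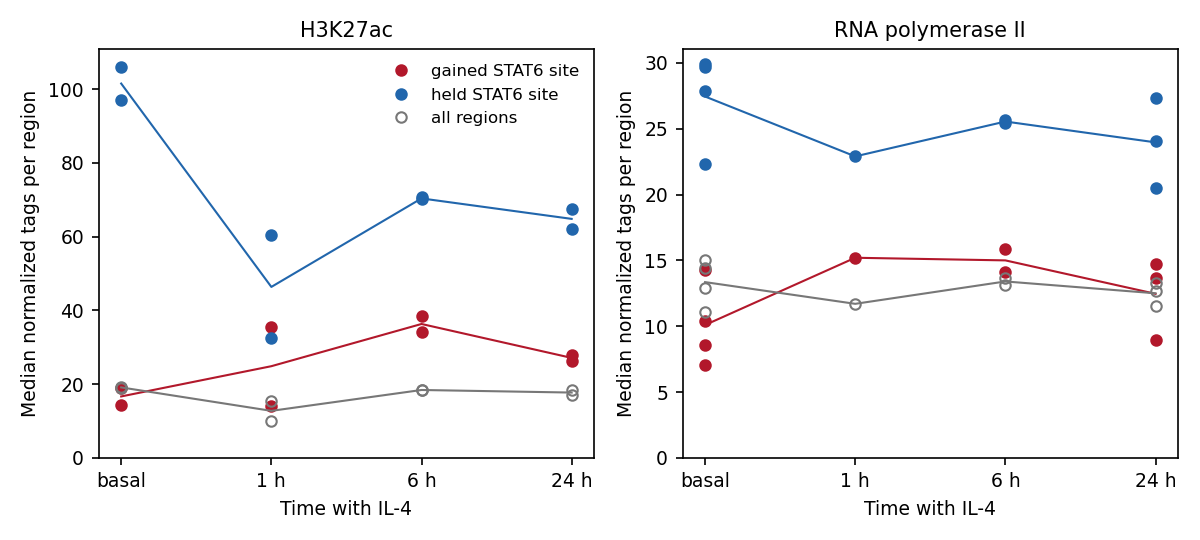
Median normalized tags (per 10000000) of H3K27ac and Pol II in each C57 library by time of IL-4, for regions with a gained site, regions with a held site and all regions. Points are libraries and lines join group means. Gained regions went from 19 and 14.3 H3K27ac tags at basal to 38.5 and 34.1 at 6 h, while held regions went from 97.0 and 106.0 to 70.1 and 70.6.

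At 1 h, 527 gained regions were higher and 124 lower by limma at an adjusted p under 0.05 (7.75% and 1.82%), beside 1.37% and 8.36% of all 77955 regions and 0.419% and 17.3% of held regions. The median log2 change was 0.20 in gained, -1.22 in held and -0.63 in all regions. With median-ratio scaling 765 gained regions were higher and 7 lower. Of held regions 192 were then higher and 296 lower, in place of 64 and 2639. The median log2 change was then 0.94 in gained and -0.43 in held regions. Scaled to the library total, the counts at gained regions rested on single libraries. Without 1 h replicate 1 they were 299 and 1204, and without basal replicate 2 they were 62 and 0. Without basal replicate 1 or 1 h replicate 2 they were 429 and 24, and 760 and 74.

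At 6 h, 826 gained regions were higher and 20 lower (12.2% higher), beside 2.67% and 2.46% of all regions and 0.837% and 5.04% of held regions. Median log2 changes were 0.67 in gained, -0.54 in held and -0.14 in all regions. The count fell to 110 higher and 0 lower without 6 h replicate 1, to 119 and 0 without 6 h replicate 2 and to 375 and 1 without basal replicate 2. At 24 h, 395 gained regions were higher and 4 lower (5.81% higher), beside 1.13% and 0.327% of all regions, with a median log2 change of 0.31 in gained and -0.69 in held regions. These were 239 and 6 without 24 h replicate 1, 212 and 3 without 24 h replicate 2, and 242 and 0 without basal replicate 2.

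Acetylation calls differed between the classes, among the sites that lay in an open region. Of 1 h only sites 55.5% did so, and of 1 and 24 h sites 64.8%. The shares were 83.5% for 1 and 6 h and 88.5% for 1, 6 and 24 h, so the classes were not measured equally. Higher calls at 6 h were made at 16.4% of 1, 6 and 24 h regions, 11% of 1 and 6 h, 7.64% of 1 h only and 4.19% of 1 and 24 h regions. At 24 h they were made at 9.73% of the 1, 6 and 24 h class and at 1.3 to 1.81% of the other 3. At 1 h the shares lay closer, at 9.45%, 7.79%, 6.08% and 4.0% in the same order as at 6 h.

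**Figure D3:**
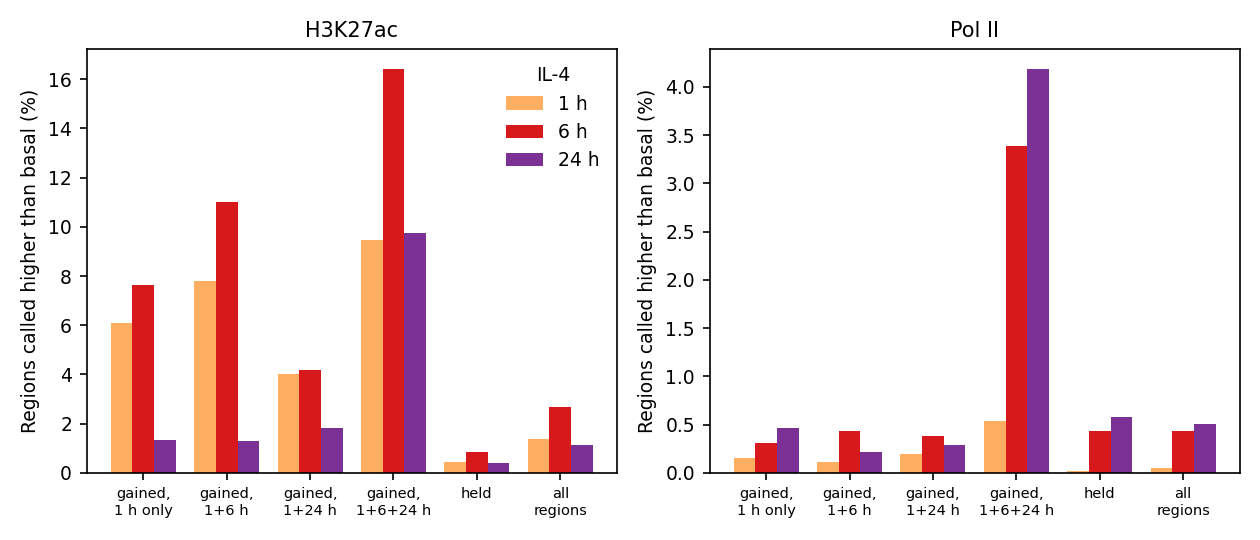
Percent of open regions called higher by limma (adjusted p under 0.05) for H3K27ac and Pol II at 1, 6 and 24 h of IL-4, by class of gained site, with held regions and all regions beside them. For H3K27ac at 24 h the class kept at 1, 6 and 24 h stood at 9.73% and the others at 1.3 to 1.81%.

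Features that the rule did not use separated gained sites by their H3K27ac response at 6 h. Sites with N4 were in a region called higher in 21.2% of cases, and those without in 7.58%. The shares were 20.4% where the region was not open at basal and 8.84% where it was, 18.3% where PU.1 had no basal peak and 5.94% where it had one, and 2.72% at promoters against 13.5% elsewhere. These features overlapped each other and the basal level, since the median basal level was 10.3 tags at sites with N4 and 21.1 at those without. Held sites with N4 were called higher in 3.25% of cases, and those without in 0.515%.

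Since gained regions had lower basal levels than held regions, the calls were also read within bands of basal H3K27ac. Under 8 tags, 26.2% of 2279 gained regions were called higher at 6 h, against 3.73% of 25624 regions with no gained site. From 8 to 32 tags the shares were 10.8% and 1.71%, and in the next band, which also spans 4-fold, 1.63% and 0.277%. In the highest band no region was called higher at 6 h in either set. The bands were chosen after the data were seen, and the same basal libraries enter the bands and the contrast.

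**Figure D4:**
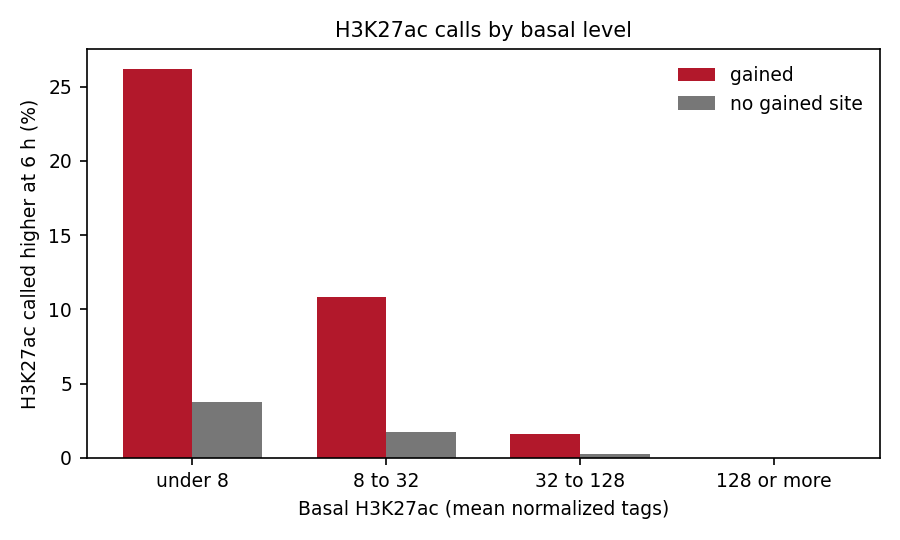
Percent of open regions called higher for H3K27ac at 6 h (limma, adjusted p under 0.05) in bands of the mean basal level in normalized tags, for regions with a gained site and regions with none. In the lowest band, under 8 tags, the values were 26.2% and 3.73%.

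Pol II was higher at fewer gained regions. The median gained region had 14.3, 10.4, 8.58 and 7.09 normalized Pol II tags in the basal libraries, 15.2 in the 1 h library, 15.9 and 14.1 at 6 h, and 14.7, 13.7 and 8.98 at 24 h. The groups overlapped, as basal replicate 1 lay above 24 h replicates 2 and 3. At 6 h, 133 gained regions were higher and 3 lower (1.96% higher), beside 0.428% and 0.137% of all regions and 0.438% of held regions higher. At 24 h, 160 were higher and 3 lower (2.35% higher), beside 0.503% and 0.174% of all regions and 0.576% of held regions higher. The median log2 change was 0.32 in gained and -0.12 in held regions at 6 h, and 0.18 and -0.13 at 24 h. At 1 h, where a single library is assumed to vary like the other groups, 24 were higher and 1 lower (0.353% higher), beside 0.0462% and 0.0449% of all regions.

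Single libraries decided how many Pol II calls were made. At 6 h the total of 136 became 1 or 8 when 6 h replicate 1 or 2 was omitted, 77, 70 or 59 when basal replicate 2, 3 or 4 was omitted, and 555 when basal replicate 1 was omitted. At 24 h the total of 163 became 27 or 48 on omitting 24 h replicate 1 or 2, 351 on omitting basal replicate 1, and 82 to 91 on omitting any of basal replicates 2, 3 and 4. At 1 h it was 190 without basal replicate 1 and 2 to 5 without 1 of the other 3. At 24 h, 4.18% of the 1, 6 and 24 h class and 0.216 to 0.468% of the other classes were higher.

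The largest rises were at distal sites with low basal signal. The site 10.3 kb from Ang5, a ribonuclease of the angiogenin family (chr14:43967275-43967502, between genes), had 2.04 and 0.0 H3K27ac tags at basal, 83.5 and 28.6 at 1 h, 206 and 262 at 6 h, and 202 and 221 at 24 h. Its log2 changes were 4.84, 7.07 and 6.93 (SE 0.64; adjusted p = 0.00349, 9.44e-05 and 0.00013). Pol II there was 0.0, 0.0, 0.54 and 0.0 at basal, 29.4 at 1 h, 62.4 and 48.3 at 6 h, and 62.7, 87.8 and 48.7 at 24 h, a log2 change of 5.88 at 24 h (SE 0.42; adjusted p = 3.42e-06). Every IL-4 library was above every basal one, and no single omitted library ended the calls at this site.

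H3K27ac was highest at 6 h at the Cry1 and Slc7a14 sites and at 24 h at the Tex9 site. At the Cry1 site (chr10:85266326-85266545), 81.4 kb from this circadian repressor gene, H3K27ac was 0.68 and 1.43 at basal, 131 and 16.2 at 1 h, 198 and 145 at 6 h, and 57.7 and 53.2 at 24 h (log2 6.40 at 6 h, SE 0.73; adjusted p = 0.000286). The Slc7a14 site (chr3:31266240-31266447), in an intron of this amino acid transporter gene, likewise went from 1.36 and 0.71 to 143 and 232 at 6 h and 86.6 and 52.5 at 24 h. The Tex9 site (chr9:72485567-72485797, intron) reached only 9.28 and 2.41 at 1 h, with adjusted p = 0.0706, but 40.0 and 73.6 at 6 h and 51.8 and 100 at 24 h (log2 5.57, SE 0.68; adjusted p = 0.000825). The Rai14 site rose at 6 h (0.68 and 1.43 to 223 and 97.4) but had 77.2 and 1.97 at 24 h, with adjusted p = 0.218, and its 6 h call was lost without 6 h replicate 1 or 2 (adjusted p = 0.139 and 0.0651).

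Falls were few. The Foxp1 site (chr6:99388706-99388952), in an intron of this forkhead factor gene, had 274 and 488 H3K27ac tags at basal, 26.3 and 73.7 at 1 h, 33.1 and 33.5 at 6 h, and 52.6 and 110 at 24 h, log2 changes of -3.02 at 1 h (SE 0.61; adjusted p = 0.0134) and -3.42 at 6 h (adjusted p = 0.00427). The call at 1 h was lost without basal replicate 2 (adjusted p = 0.127) and also when median-ratio scaling was used, and that at 6 h without 6 h replicate 1 or 2 (adjusted p = 0.1 and 0.0876). Pol II fell at 6 h at the Pid1 site, 1.17 kb from the start, from 54.3, 72.2, 166 and 164 to 19.7 and 11.2 (log2 -2.69, SE 0.54; adjusted p = 0.0314), a call lost without any 1 of basal replicates 2, 3 and 4 or of the 6 h libraries (adjusted p = 0.0508 to 0.453). N4 was absent from the Foxp1, Dclk1, Rspo2 and St3gal1 sites and present at the Pid1 site and at the Fyb site, where Pol II also fell at 6 h (log2 -2.46, adjusted p = 0.028), a call lost without any 1 of the same 5 libraries (adjusted p = 0.0694 to 0.342).

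Some strong sites differed between replicates more than between times. At the Lmo4 site H3K27ac was 181 and 9.27 at basal, 198 and 7.92 at 1 h, 174 and 119 at 6 h, and 143 and 7.88 at 24 h, and at the Vmn1r39 site (chr6:66849006-66849224) it was 35.3 and 2.14, 186 and 11, 123 and 79.7, and 60.3 and 1.31. Replicate 1 was above replicate 2 at every time there, and no contrast passed the test (adjusted p = 0.156 to 0.988).

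Of all protein-coding genes, 34.7% had a gained site and 48.8% a held site within 50 kb of a start. Of the 23 IL-4 effector genes listed, 18 had a held site within 50 kb, so nearness to these genes was not particular to gained sites. A gained site lay that near to 18 of the 23, with 52 sites in 40 regions. H3K27ac was higher in 8, 13 and 5 of these regions at 1, 6 and 24 h and Pol II in 3, 10 and 8, and none was lower. Over all gained regions 7.75%, 12.2% and 5.81% were higher for H3K27ac and 0.353%, 1.96% and 2.35% for Pol II. Over all regions these shares were 1.37%, 2.67% and 1.13%, and 0.0462%, 0.428% and 0.503%. The median log2 change of the 40 regions at 6 h was 1.75 for H3K27ac and 1.97 for Pol II, beside 0.67 and 0.32 over all gained regions. The genes were chosen as known IL-4 targets, so their direction is not independent evidence.

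At the Arg1 site (chr10:24931572-24931807), H3K27ac was 10.2 and 25 at basal, 271 and 36.5 at 1 h, 384 and 230 at 6 h, and 95.1 and 127 at 24 h, with a log2 change of 4.13 at 6 h (SE 0.74; adjusted p = 0.00427). Pol II at this site was 24.3, 5.62, 4.29 and 5.06 at basal, 94.4 at 1 h, 82.1 and 49.2 at 6 h, and 13.3, 38.7 and 23.1 at 24 h, so 6 h stood above basal (log2 2.92, SE 0.59; adjusted p = 0.0329) and 24 h overlapped it. Both 6 h calls ended when a 6 h library was left out (H3K27ac adjusted p = 0.12 without replicate 1 and 0.0582 without replicate 2, Pol II 0.473 and 0.281), and the Pol II call also ended without basal replicate 2, 3 or 4 (0.0799 to 0.111).

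Calls at other effector genes were made in 1 or both readouts. At the intronic site 1.96 kb into Tmem26 (chr10:68725606-68725815), Pol II went from 13.7, 0.8, 0.0 and 1.01 to 210 and 221 at 6 h and 246, 176 and 43.6 at 24 h (log2 5.53 at 24 h, SE 0.71; adjusted p = 0.00104), and H3K27ac rose as well (log2 5.54 at 6 h; adjusted p = 0.000593). At the intronic Atp6v0d2 site, in this gene of a proton pump subunit, Pol II was 104, 57.8, 44.5 and 45.6 at basal and 455, 285 and 212 at 24 h (log2 2.33, SE 0.38; adjusted p = 0.00835), whereas H3K27ac did not pass (adjusted p = 0.147 to 0.446). The Mmp12 site, by the macrophage elastase gene, had 13.6 and 29.9 H3K27ac tags at basal and 174 and 110 at 6 h (log2 2.71, SE 0.64; adjusted p = 0.0205), a call lost without either 6 h library or basal replicate 1 (adjusted p = 0.111 to 0.269). At the site 46.6 kb into Mrc1, the mannose receptor gene, Pol II was 4.99, 11.2, 24.6 and 12.2 at basal and 81.6 and 86.3 at 6 h (log2 2.76, SE 0.61; adjusted p = 0.0494), a call lost without any 1 of 5 of the 6 libraries.

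At the promoters of the effector genes, whose regions need not hold a STAT6 site, Pol II was higher at 6 of 17 at 6 h: Arg1, Mgl2, Pdcd1lg2, Slc7a2, Tmem26 and Atp6v0d2. Beside them, Pol II was higher at 6 h at 0.0475%, 0.0692%, 0.344% and 1.91% of promoter regions of all genes with 0, 1, 2 to 4, and 5 or more gained sites within 50 kb, over regions that held no gained site. The promoter regions of Pdcd1lg2 and Atp6v0d2 did hold a gained site, as did that of Ptgs1, so regions of their kind are not in these shares. Pdcd1lg2 went from 1.87, 2.41, 0.54 and 2.03 tags to 35.6 and 34.1 at 6 h and 66.0, 75.5 and 16.7 at 24 h (log2 4.11, SE 0.51; adjusted p = 0.000784). Slc7a2, a cationic amino acid transporter gene, went from 42.4, 15.2, 2.14 and 5.06 to 237, 184 and 64.1 at 24 h (log2 3.72, SE 0.66; adjusted p = 0.0137). The gained promoter sites of Slc7a2, Chil3 and Chil4 lay in none of the regions measured.

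Genes of the IL-4 receptor and JAK-STAT pathway had a held site in 11 of 13 cases and a gained site in 10, with 29 gained sites in 26 regions. H3K27ac was higher in 7, 9 and 8 of them at 1, 6 and 24 h and Pol II in 2, 4 and 5, and none was lower. At 6 h that was 9 and 4 of 26, beside 12.2% and 1.96% of all gained regions and 2.67% and 0.428% of all regions. The calls examined by name lay at the feedback inhibitors. The site 1.55 kb from Socs1 (chr16:10786974-10787201), of the 1 h only class, had 6.11 and 1.43 H3K27ac tags at basal, 130 and 76.8 at 1 h, 182 and 262 at 6 h, and 154 and 203 at 24 h (log2 4.60, 5.72 and 5.42, SE 0.60; adjusted p = 0.00349, 0.000221 and 0.00049). Both 24 h libraries thus stood above both basal ones, though no peak of the later STAT6 lists overlapped this site. Whether those lists held a peak elsewhere in the wider region measured for H3K27ac was not checked.

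A second Socs1 site (chr16:10781166-10781453, 4.23 kb from the start) had the highest Pol II values, 16.9, 13.6, 10.7 and 3.04 at basal, 749 at 1 h, 387 and 494 at 6 h, and 502, 981 and 123 at 24 h (log2 5.22 at 24 h, SE 0.58; adjusted p = 0.000384). Its H3K27ac was 0.68 and 0.0 at basal and 29.3 and 18.9 at 6 h. The Cish site 6.6 kb from the start (chr9:107303204-107303422) had 5.62, 0.0, 0.54 and 2.03 Pol II tags at basal, 188 at 1 h, 176 and 154 at 6 h, and 113, 157 and 26.9 at 24 h (log2 5.08 at 24 h, SE 0.61; adjusted p = 0.000556). At both sites the libraries treated for 24 h all stood above the basal ones, with replicate 3 the lowest. At the Socs2 promoter Pol II was 3.74, 14.4, 4.29 and 6.08 at basal, 19.8 at 1 h, 18.1 and 30.2 at 6 h, and 48.7, 36.4 and 33.4 at 24 h. Every IL-4 library there was above every basal one, and 24 h passed the test (log2 2.47, adjusted p = 0.0168) while 1 and 6 h did not (log2 1.52 and 1.75, adjusted p = 0.435 and 0.146). The Il4ra, Jak1, Jak2, Jak3, Tyk2, Socs3 and Ptpn6 sites did not pass for either readout at 1, 6 or 24 h.

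Of 14 transcription factor genes linked to IL-4, 14 had a held site and 12 a gained site, with 40 gained sites in 34 regions. H3K27ac was higher in 2, 6 and 5 of these regions at 1, 6 and 24 h and Pol II in 2, 3 and 6. Beside these, 7.75%, 12.2% and 5.81% of all gained regions were higher for H3K27ac and 0.353%, 1.96% and 2.35% for Pol II, and the 2 of 34 for H3K27ac at 1 h were no larger a share than that of all gained regions. At the Irf4 site, 34.4 kb from this gene of a factor needed for alternative activation, H3K27ac was 7.46 and 10.7 at basal and 55.2 and 156 at 24 h (log2 3.24, SE 0.59; adjusted p = 0.00875). Jdp2, an AP-1 family gene, had 1.25, 2.41, 1.07 and 0.0 Pol II tags at its site at basal and 17.3, 9.1 and 10.3 at 24 h (log2 2.68, SE 0.51; adjusted p = 0.0222). The 6 h calls at these sites, H3K27ac at Irf4 (adjusted p = 0.036) and Pol II at Jdp2 (adjusted p = 0.0463), were lost on omitting most single libraries. The Batf3 site rose at 24 h as well for Pol II (log2 1.76, adjusted p = 0.017). At the Egr2 promoter Pol II was 170, 105, 68.1 and 124 at basal, 461 at 1 h, 398 and 495 at 6 h, and 422, 410 and 319 at 24 h, higher at 6 h (log2 1.99, SE 0.40; adjusted p = 0.0327) and at 24 h (adjusted p = 0.0282).

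Lists of macrophage lineage factor genes and of inflammatory genes were read in the same way. In all, 9 of 10 macrophage lineage factor genes had a gained site and 10 a held site. None of their 18 regions with a gained site was called for H3K27ac or Pol II at any time, with median log2 changes at 6 h of -0.21 and 0.11. Beside this, 12.2% and 1.96% of all gained regions and 2.67% and 0.428% of all regions were higher at 6 h. With only 18 regions, and no split by basal level, a difference from those shares was not tested. Of 10 inflammatory genes, 10 had a held site and 7 a gained site. Of their 11 regions with a gained site none was higher and 2 were lower for H3K27ac at 1 h. Of all gained regions 1.82% were lower then, and of all regions 8.36%. The median H3K27ac log2 change of the 11 regions was -0.43 at 1 h, 1.08 at 6 h and -0.31 at 24 h.

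Promoter regions of all genes that held no gained site were read by the number of gained sites within 50 kb, a comparison added after the data were seen. Pol II was higher at 24 h at 0.0317% of 6312 promoter regions with no gained site nearby, 0.104% of 2889 with 1, 0.394% of 2032 with 2 to 4, and 2.55% of 157 with 5 or more, the last being 4 regions. For H3K27ac at 6 h the shares were 0.364%, 0.658%, 0.787% and 5.73%.

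EGR2 peaks appeared at gained sites over the time course. They covered 6.84% of gained sites at basal, 14.9% at 1 h, 11.4% at 6 h and 29.5% at 24 h, and 16%, 29.6%, 25.6% and 52.7% of held sites, from lists of 8437, 13562, 13072 and 29407 peaks. At 24 h they covered 45.4% of the 1, 6 and 24 h class, 29.0% of 1 and 6 h, 18.3% of 1 and 24 h and 9.91% of 1 h only. An EGR2 peak at 24 h and none at basal was found at 22.9% of gained sites, 33.9% of the 1, 6 and 24 h class and 36.9% of held sites. Sites with N4 had an EGR2 peak at 24 h in 21.3% of cases and sites without in 34.6%. With the STAT6 lists and the EGR2 24 h list cut to 23884 peaks each, the share of gained sites at 24 h was 25.2%. The shorter EGR2 lists of basal, 1 h and 6 h were not made equal, so the rise over time was not freed of list length.

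**Figure D5:**
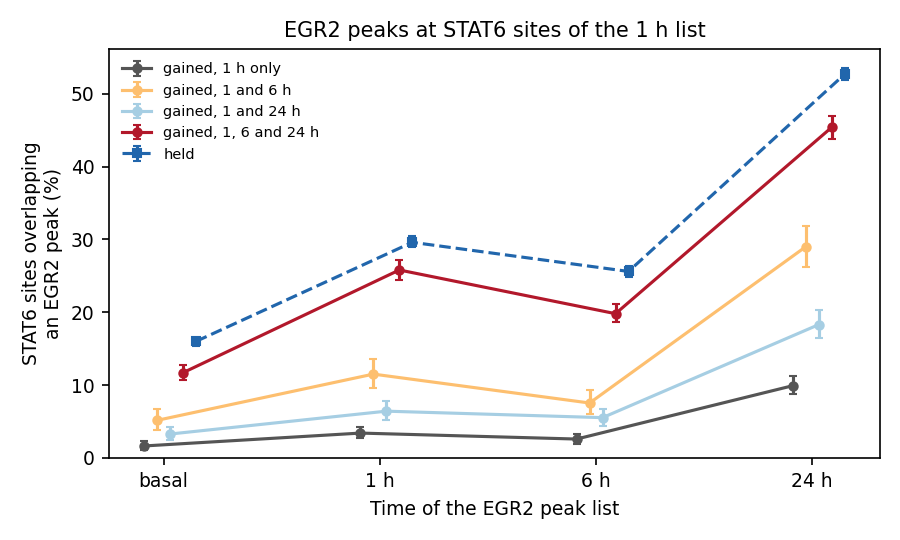
Percent of gained STAT6 sites that overlap an EGR2 peak of the basal, 1, 6 and 24 h lists, by class, with held sites beside them and 95% exact binomial intervals, which cover counting error only. At 24 h the classes ran from 9.91% (1 h only) to 45.4% (1, 6 and 24 h).

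The EGR2 tags at 2517 gained sites, of 30675 sites in the table, were tested in the same way. The median gained site had 20.1 and 21.5 tags at basal, 9.03 and 32.8 at 1 h, 15.7 and 45.3 at 6 h, and 42.2 and 38.4 at 24 h, so that only the 24 h libraries were both above basal and alike. By limma 0 gained sites were higher or lower at 1, 6 and 24 h, beside 0.0% of all sites in each direction and time. At an unadjusted limma p under 0.05, 58 were higher and 62 lower at 1 h, 181 and 15 at 6 h, and 299 and 0 at 24 h. Of all 30675 sites these counts were 110 and 975, 1063 and 106, and 1038 and 0. Among gained sites edgeR called 0, 2 and 3 higher and DESeq2 0, 14 and 16. The median log2 change at 24 h was 0.80 at gained, 0.58 at held and 0.66 at all sites, and 0.17, -0.06 and 0.02 after median-ratio scaling. Without 1 h replicate 2, 8 were higher and 363 lower at 1 h, and without 6 h replicate 1 or 2 there were 12 and 32 calls at 6 h.

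The largest EGR2 rise was at the Tex9 site, with 2.81 and 8.06 tags at basal, 17.2 and 85.8 at 1 h, 29.7 and 211 at 6 h, and 132 and 187 at 24 h (log2 4.75, SE 0.88; adjusted p = 0.0847, and past 0.05 by edgeR and DESeq2). The Sft2d2 promoter site (3.75 and 0.0 to 34.1 and 83.5) and the Smurf1 site (6.56 and 0.0 to 48.5 and 87.4) followed, with log2 4.64 and 4.59 and adjusted p = 0.576. Smurf1 encodes a ubiquitin ligase. Their 24 h libraries lay above the basal ones without passing the test. The Cish site 11.3 kb from the start had 15.4 and 26.9 EGR2 tags at basal, 93.9 and 338 at 1 h, 203 and 500 at 6 h, and 303 and 362 at 24 h (log2 3.95, SE 0.70; adjusted p = 0.0604), each IL-4 library above both basal ones.

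The Egr2 genotype table gave STAT6 in libraries that the rule had not used. It holds 4677 sites around EGR2 peaks that IL-4 induced at 24 h, and 706 were gained STAT6 sites, so these are not a sample of all 8688. In Egr2 fl/fl cells the median gained site had 4.12 and 2.39 STAT6 tags at basal and 14.9 and 11.5 at 24 h, and in LyzM-Cre Egr2 fl/fl cells 3.34 and 2.75, and 6.19 and 4.51. Both genotypes were higher at 24 h than at basal, and the deleted cells lay below the floxed ones at 24 h.

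In Egr2 fl/fl cells, 222 of 706 gained sites were higher at 24 h and 0 lower (31.4%), beside 11.8% and 0.0% of all sites in the table and 19% of held sites higher. The median log2 change was 1.68 at gained, 1.14 at held and 1.04 at all sites. By class, 38.7% of the 1, 6 and 24 h sites, 10.2% of 1 and 6 h, 6.56% of 1 and 24 h and 0% of 1 h only were higher. The count was 32 with median-ratio scaling, 76 with DESeq2, 237 with edgeR and 362 with a replicate block, and it was 11 without 24 h replicate 1, 46 without 24 h replicate 2 and 55 without basal replicate 2. For the interaction of genotype and IL-4, limma called 0 gained sites in either direction, beside 0.0% of all sites, as did edgeR and DESeq2. At an unadjusted limma p under 0.05, 1 of the 706 gained sites was higher and 95 lower, beside 8 and 375 of all 4677. With the replicate number as a block limma called 0 gained sites higher and 5 lower. The median interaction was -1.03 at gained, -0.56 at held and -0.73 at all sites, and -0.44, 0.09 and -0.18 after median-ratio scaling.

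The largest STAT6 rises were near Tex9, Pim1 and Cish. At the Tex9 site STAT6 was 1.03 and 1.2 at basal and 80.9 and 55.8 at 24 h in Egr2 fl/fl cells (log2 5.01, SE 0.65; adjusted p = 2.22e-05), and 2.23 and 1.84, and 9.28 and 6.76, in LyzM-Cre Egr2 fl/fl cells, an interaction of -3.45 (SE 0.91; adjusted p = 0.407). At the site 46.8 kb from Pim1, a kinase gene that STAT factors are known to induce, it was 2.06 and 0.0, then 73.5 and 34.5 in Egr2 fl/fl cells (log2 4.88, SE 0.71; adjusted p = 0.000155), and 1.11 and 1.84, then 30.9 and 9.01 after deletion. At the Cish site 11.3 kb from the start (chr9:107307887-107308121), it was 2.06 and 1.2, then 92.1 and 43.4 (log2 4.63, SE 0.89; adjusted p = 0.00108), a call lost without 24 h replicate 1 or basal replicate 2 (adjusted p = 0.114 and 0.0554), and 2.23 and 0.92, then 24.7 and 0.0 after deletion. At all 3 sites the LyzM-Cre libraries at 24 h lay below the Egr2 fl/fl ones, but no interaction at them passed the test without the block.

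H3K27ac of the same genotypes was examined at 759 gained sites of this table, a comparison added after the data were seen. The median site had 24.7 and 21 tags at basal and 53.3 and 54.6 at 24 h in Egr2 fl/fl cells, and 17.1 and 16.3, and 31.2 and 30.2, in LyzM-Cre Egr2 fl/fl cells. In Egr2 fl/fl cells 349 were higher and 16 lower at 24 h (46.0% higher), beside 25.6% and 2.54% of all sites, and 231 and 69 after median-ratio scaling. At 24 h, 221 were lower and 10 higher in the deleted cells (29.1% lower), beside 23.2% and 1.41% of all sites and 10.5% of held sites lower. After median-ratio scaling the split was 94 lower and 85 higher. That scaling uses only the sites of this table, and it moved the median log2 difference of all of them from -0.5 to -0.03. Since they were chosen as EGR2 peaks that IL-4 induced, it cannot show whether they fell together after deletion. Scaled to the library total, the split was 94 lower and 0 higher without Egr2 fl/fl 24 h replicate 1, and 101 and 6 without its replicate 2. It was 147 and 0 without LyzM-Cre replicate 1, and 155 and 5 without LyzM-Cre replicate 2. The interaction gave 0 calls by limma, edgeR and DESeq2, beside 0.0% of all sites, and 4 higher and 17 lower calls with a replicate block. At an unadjusted limma p under 0.05, 21 of the 759 sites were higher and 93 lower, beside 69 and 546 of all 4677. The share lower was thus close to that of all sites.

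The Tex9 site was among those lower after deletion. Its H3K27ac was 1.7 and 2.72 at basal and 111 and 86.1 at 24 h in Egr2 fl/fl cells, and 1.0 and 0.0, then 11.4 and 13.9, in LyzM-Cre Egr2 fl/fl cells (log2 difference at 24 h -2.85, SE 0.50; adjusted p = 0.000986). The Pim1 site had 183 and 197 at 24 h in Egr2 fl/fl and 157 and 90.5 after deletion (log2 -0.67, SE 0.32; adjusted p = 0.137), so its groups did not overlap but it did not pass.

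H3K4me2, a mark of enhancers both active and primed, changed at few gained sites. The median of 5304 gained regions was 36.8 and 32.4 tags at basal and 34.8 and 21.2 at 24 h, with 24 h replicate 2 well below the other 3. Of these regions 36 were higher and 1 lower (0.679% higher), beside 0.179% and 0.0576% of all 67742 regions. At an unadjusted limma p under 0.05, 218 of the 5304 were higher and 1132 lower, beside 1498 and 21565 of all 67742. With median-ratio scaling 89 gained regions were higher and 0 lower, and DESeq2 called 0 higher and 429 lower. Without 24 h replicate 1, 38 were higher and 2081 lower, without 24 h replicate 2 there were 0 calls, and without basal replicate 1 or 2 there were 14 and 17. The Tex9 region rose (0.82 and 0.7 to 27.9 and 13.2, log2 3.52, SE 0.61; adjusted p = 2.13e-05), as did the Pim1 region (5.72 and 1.41 to 27.9 and 16.8, log2 2.5, SE 0.56; adjusted p = 0.0066).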

How the data were processed

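ChIP-seq of STAT6, EGR2, PU.1, C/EBPβ, PPARγ, H3K27ac, H3K4me2 and Pol II in BMDMs was used. The authors mapped reads of C57 to mm10 with bowtie2 and those of other strains to genomes of these strains, which were then shifted to mm10 coordinates with MMARGE. They made tag directories with HOMER, and called factor peaks as 1 list per group, reproducible between replicates by IDR. In the deposited peak lists each peak has a score and a count. The deposited signal tables hold tags in fixed windows that the authors scaled to 10000000 tags per library. Multiplied by the library totals per the file headers, 100% of the values came within 0.1 of a whole read, so reads could be recovered.

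A gained site is a peak of the C57 STAT6 1 h list with no overlap of 1 bp in the basal list. The members and gene lists were chosen with earlier results of these data known. A gained site was given the table region whose window held it, with promoters within 1000 bp of a start and genes within 50 kb, by GENCODE annotation of mm10. Normalized tags were tested as log2(normalized tags + 1) with limma (lmFit, eBayes with trend), across all regions of a table and all its groups, with Benjamini-Hochberg adjustment and a threshold of 0.05, so fold changes of low regions are understated. In the Egr2 genotype tables, libraries with the same replicate number deviated together from their group means (correlations of 0.156 to 0.356 for STAT6 and 0.231 to 0.508 for H3K27ac over all 6 pairs of groups), so values with the replicate number as a block stand beside the results they move. The recovered reads were also tested with edgeR's quasi-likelihood test and DESeq2. Median-ratio scaling levelled the libraries over the regions of each table alone. It therefore removes a change that most of these regions share, as at the EGR2 peaks of the Egr2 genotype tables. Regions were named as the highest-scoring sites of each class, the 4 largest rises and 2 largest falls per contrast among regions called with replicates that did not overlap and a mean of at least 16 (Pol II 8) tags, the 3 largest rises of EGR2 and of STAT6 in Egr2 fl/fl cells, and the highest-scoring gained site of each listed gene. The values of named sites in readouts other than the one that named them were picked after they were seen. Exact binomial intervals (Clopper-Pearson, 95%) cover counting error only. Scripts were tested on simulated data. 4 value columns matched no sample and were not used, and columns of annotation were used only to check the build. Versions were Python 3.11.15, pandas 2.3.3, scipy 1.17.1, R 4.3.3, limma 3.58.1, edgeR 4.0.16 and DESeq2 1.42.0.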

Additional observations from a re-analysis of the deposited data

Results flagged for a closer look

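At 73 named regions the 4 basal Pol II libraries were searched for a library far from the others, by whether its gap to the nearest neighbour, as a share of the whole range, passed Dixon's 95% critical value for 4 samples. Chance marks about 1 in 20 such groups, and 8 regions were marked. Basal replicate 1 was the high library near Akap7 (share 0.914, tags 4.05 to 69.3), Cry1 (0.981, 1.01 to 31.8), Tmem26 (0.926, 0.0 to 13.7), Arg1 (0.934, 4.29 to 24.3) and Cebpb (0.852, 2.03 to 9.98). The other regions were near Ang5 (1.0, 0.0 to 0.54 tags), Cd36 (0.967, 20.0 to 90.6) and Bcl6 (0.962, 135.0 to 186.0). Basal replicate 1 is also the library whose omission raised the Pol II calls at gained regions, from 136 to 555 at 6 h.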

How the results depend on the processing

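No named region changed direction under any alternative run. Counts of H3K27ac calls at gained regions at 1, 6 and 24 h (651, 846 and 399, both directions) became 1791, 1923 and 1115 with the replicate block, 1469, 1742 and 1213 when called by means 2.5-fold apart in that readout alone, with at least 16 tags (Pol II 8) in either group, and 1046 at 1 h with DESeq2. Leaving out 1 library gave 62 to 1503, 110 to 1066 and 215 to 358. Pol II calls (25, 136 and 163) became 123, 259 and 290 with DESeq2 and 988, 691 and 534 by the same fold. With the replicate block they were 61 at 1 h and 407 at 24 h, and at 1 h also 63 with edgeR, 68 with median-ratio scaling and 11 with a pseudocount of 5. Leaving out 1 library gave 2 to 190, 1 to 555 and 27 to 351.

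EGR2 calls (0 at each time) were 14 at 6 h and 16 at 24 h with DESeq2, 23 and 33 with the replicate block, 2 and 3 with edgeR, 9 and 13 with a pseudocount of 5, and 2 at 6 h with median-ratio scaling, and 0 to 371 at 1 h and 0 to 32 at 6 h without 1 library. STAT6 calls in Egr2 fl/fl cells (222) were 362 with the replicate block, 110 with the filter on low values, 76 with DESeq2, 32 with median-ratio scaling and 11 to 203 without 1 library, and their interaction (0) had 5 calls with the replicate block. H3K4me2 calls (37) were 429 with DESeq2, 77 with the block, 10 with the filter, 89 with median-ratio scaling and 0 to 2119 without 1 library. H3K27ac genotype calls (231) were 94 to 160 without 1 library, and their interaction (0) had 21 with the block, 11 with a pseudocount of 5 and 0 to 2 without 1 library. These H3K27ac genotype results and their alternatives were chosen after seeing the data.

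The higher-scoring part of the 1 h list held 3953 gained sites, of which 76.2% were kept at 6 h, 73.9% at 24 h and 31.7% were in the EGR2 24 h list. With lists of 23884 peaks these shares were 59.7%, 45.2% and 25.2%. With centres within 500 bp, 63.9% were kept at 24 h and 32% were in the EGR2 list, and 28.3% with an overlap of 50% of the peak. At 50 named regions and contrasts, 91 omissions of a library ended a call and 153 did not, and of the other settings 9 ended a call, 8 made one and 281 did neither. At the sites of listed genes this was run at 6 h only, so the 24 h calls at Socs2, Irf4, Jdp2, Batf3 and Atp6v0d2, the promoter calls, and the H3K27ac genotype, H3K4me2 and secondary values at named sites were not tried under other settings. The cause of these changes was not tested. Libraries that share a number correlated in their deviations from group means by 0.0289 to 0.725 for H3K27ac, 0.0886 to 0.385 for Pol II and -0.0714 to 0.471 for EGR2. For H3K4me2 the correlation was 0.424, in 1 pair of groups. The values for H3K27ac, Pol II and H3K4me2 were thus all positive, and the labels do not say whether such libraries were paired. The main tests used no block and so leave out any pairing. Counts that moved with the replicate block are given above.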
